A study of Homo sapiens with 15 samples.

Results

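The nuclear genes of the mitochondrial respiratory chain, together with COXFA4L3, were followed through geldanamycin treatment of A549 cells, a human lung carcinoma line. The members were all genes whose symbol starts with NDUF, UQCR or ATP5, or with COX4, COX5, COX6, COX7 or COX8, plus SDHA, SDHB, SDHC, SDHD, CYC1, CYCS and COXFA4L3. A probe set had to carry 1 symbol only, and where a gene had several, the one brightest on average over all 15 arrays stood for it. This gave 93 of the 19775 genes measured. SDHB, NDUFS8, NDUFS5, NDUFC2, UQCRFS1 and UQCRH were not analysed here. Of the 13 subunits encoded by mitochondrial DNA, 0 had such a probe set.

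Geldanamycin is a benzoquinone antibiotic that blocks the nucleotide pocket of the chaperone HSP90. Cells adhered for 24 h and were then exposed for either 24 h or 48 h. The 24 h arm had a vehicle group (DMSO at 0.4%) and a 40 nM geldanamycin group. The 48 h arm had a vehicle group and groups at 10 nM and 40 nM, and each of the 5 groups holds 3 arrays. Per the labels, the higher dose was the IC50 and the lower dose the IC20. No 10 nM group was measured at 24 h. The labels do not say whether the 3 arrays of a group come from separate cultures. The p-values therefore reflect only how far the arrays of a group scatter, and this scatter may be technical.

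The respiratory chain passes electrons from NADH (complex I) and succinate (complex II) through ubiquinone, complex III and cytochrome c to oxygen at complex IV, and the protons it pumps drive ATP synthase. Most subunits are encoded in the nucleus, made in the cytosol and imported, while a few core subunits are made from mitochondrial DNA, so that assembly factors have to join parts from both genomes. COXFA4L3 (formerly C15orf48 or NMES1) encodes a small mitochondrial protein related to COXFA4 (formerly NDUFA4), a subunit of complex IV. It is known as a gene of inflammatory responses, and its transcript is the host of a microRNA.

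The sequences at the start of COXFA4L3 and of a pair of other members are shown because COXFA4L3 moved by far more than any other member. SDHD and UQCR11 were picked for contrast, as members that hold matches to both motifs named for them. Each line gives the 250 bases before the transcription start from RefSeq (GRCh38.p14), read 5′ to 3′ on the gene's strand. COXFA4L3 lies on the plus strand, chr15:45430360-45430609, and its capitals mark a TATANAA match. SDHD, a membrane anchor of complex II, lies on the plus strand, chr11:112086623-112086872. UQCR11, a small subunit of complex III, lies on the minus strand, chr19:1605463-1605712. In the last 2 sequences the capitals mark matches to the motifs of NRF1 and of ETS factors, which are known for their sites in promoters of respiratory chain genes.
COXFA4L3: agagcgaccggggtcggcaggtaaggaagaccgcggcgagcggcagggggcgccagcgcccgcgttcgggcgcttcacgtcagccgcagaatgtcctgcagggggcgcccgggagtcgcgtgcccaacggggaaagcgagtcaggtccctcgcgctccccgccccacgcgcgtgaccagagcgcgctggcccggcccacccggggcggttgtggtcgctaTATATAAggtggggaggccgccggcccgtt
SDHD: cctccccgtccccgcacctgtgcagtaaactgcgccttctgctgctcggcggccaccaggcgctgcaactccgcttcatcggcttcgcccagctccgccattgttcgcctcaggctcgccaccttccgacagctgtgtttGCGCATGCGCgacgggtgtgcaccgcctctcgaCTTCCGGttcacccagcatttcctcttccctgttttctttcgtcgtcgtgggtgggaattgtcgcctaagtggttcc
UQCR11: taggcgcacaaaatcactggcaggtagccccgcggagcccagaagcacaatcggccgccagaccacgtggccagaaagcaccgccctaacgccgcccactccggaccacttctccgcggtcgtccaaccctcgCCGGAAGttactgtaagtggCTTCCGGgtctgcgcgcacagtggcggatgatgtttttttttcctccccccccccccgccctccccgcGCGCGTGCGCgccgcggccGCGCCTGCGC
The mature microRNA made from the COXFA4L3 host transcript, hsa-miR-147b-3p, is encoded on the plus strand at chr15:45433098-45433118, and its seed (bases 2 to 8) is in capitals. The array gives no value for it.
hsa-miR-147b-3p: gUGUGCGGaaaugcuucugcu

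A promoter of RefSeq was matched to 78 of the 93 members. Motifs were searched on both strands of the 300 bases from 250 before to 50 after the start. The NRF1 motif (GCGC, any base, TGCGC) was found in 17 of the 78 windows (21.8%) against 6.28% of all 27305 promoters. CCGGAAG, the ETS motif, was found in 19 (24.4% against 10.7%), and AAGATGGCG, the YY1 motif, in 7 (8.97% against 1.85%). At least 1 of these 3 motifs was found in 37 of the 78 windows (47.4%) against 17% of all promoters, and none of them in that of COXFA4L3. TATANAA was found in 5 member windows (6.41% against 9.51%), with COXFA4L3 among them, at bases -30 to -24. COX6A2, COX7A2, COX7B and NDUFA2 are the others, and like COXFA4L3 they hold none of the other motifs searched. GAANNTTC, the core of a heat shock element, was found in 5 (6.41% against 6.87%), and an NF-kB motif (GGGA, any 4 bases, CC) in 19 (24.4% against 25.1%), neither of them in COXFA4L3. These matches describe letters in a window and are not binding sites.

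The values are log2 expression values made by RMA. For a typical gene, a log2 difference between treated and vehicle had a standard error of 0.0966 (the median), and a gene is said to have risen, fallen or changed where limma's adjusted p was under 0.05 over all 19775 genes. Arrays of a group correlated at 0.994 to 0.998 over genes. The mean over all probe sets was 5.13 and 5.14 in the 2 groups at 24 h and 5.52 in each of the 3 groups at 48 h, so a level at 48 h set against one at 24 h holds this step as well. The 10 nM arrays stood apart in technical controls: the poly-A spike-in probe sets averaged 3.37 ± 0.04 (SD, n = 3), against group means of 5.81 to 6.42 elsewhere, and the 3′ probe set of ACTB exceeded the 5′ one by 2.68 ± 0.03 log2 units, against 0.125 to 0.445. Both values move with the comparisons that use the 10 nM arrays, and their part in those results was not tested. Of 8 epithelial markers measured, 5 lay above the median gene, against 0 of 8 leukocyte, 1 of 8 fibroblast and 0 of 7 endothelial markers. The mean of the epithelial markers ran from 7.92 to 9.17 over the arrays and that of the leukocyte markers from 3.63 to 4.58. Some markers moved with treatment: 5 epithelial markers rose and 1 fell after 40 nM at each time, and 2 rose and 2 fell after 10 nM. Of the fibroblast markers 2 rose after 40 nM for 24 h, 3 fell after 10 nM (LUM from a mean of 6.37 to 2.92), and 1 rose and 1 fell after 40 nM for 48 h. Of the leukocyte markers 1 rose after 10 nM and 2 after 40 nM at 48 h (ITGAM from 4.41 to 5.62 after 40 nM), and no endothelial marker passed. The part of these changes in the results was not tested.

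COXFA4L3 rose in each comparison of geldanamycin with vehicle. Its log2 values were 6.84, 6.37 and 6.45 in vehicle at 24 h and 8.61, 8.50 and 8.81 after 40 nM for 24 h. At 48 h they were 6.28, 6.13 and 6.30 in vehicle, 10.68, 10.65 and 10.62 after 10 nM, and 9.52, 9.71 and 9.59 after 40 nM. Every treated array was above every vehicle array, and the 10 nM arrays were the highest of all 15. In bulk RNA, more cells that carry a transcript and more transcript per cell cannot be told apart. The gene rose by 2.08 ± 0.11 log2 units (SE) after 40 nM for 24 h, which is 4.24-fold (limma, adjusted p = 6.87e-09). At 48 h it rose by 4.41 ± 0.11 after 10 nM, 21.3-fold (adjusted p = 4.97e-12), and by 3.37 ± 0.11 after 40 nM, 10.4-fold (adjusted p = 1.78e-10).

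Among the rises of all 19775 genes, that of COXFA4L3 ranked 30 after 40 nM for 24 h, 2 after 10 nM for 48 h and 2 after 40 nM for 48 h. The effect of 40 nM was larger at 48 h than at 24 h by 1.29 ± 0.16 (adjusted p = 6.12e-05). At 48 h the level after 40 nM was lower than after 10 nM by 1.04 log2 units, or 2.05-fold (adjusted p = 9.09e-06). That last comparison, like the rise and the rank after 10 nM, uses the 10 nM arrays, which stand apart in technical controls. The dose and this technical difference cannot be told apart in these results. Between the vehicle groups COXFA4L3 differed by -0.32 (48 h minus 24 h, adjusted p = 0.0211) while the median gene differed by 0.35. This call was lost without vehicle array 1 at 24 h (-0.17, adjusted p = 0.106) and without vehicle array 2 at 48 h (-0.27, adjusted p = 0.0791). COXFA4L3 has 1 probe set, so no other probe set of the array bears on these values.

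COXFA4, the paralog that is a regular subunit of complex IV, is outside the name rule and moved by less. Its log2 values were 11.52, 11.52 and 11.40 in vehicle and 11.71, 11.63 and 11.66 after 40 nM at 24 h. At 48 h they were 12.14, 12.17 and 12.10 in vehicle, 11.80, 11.80 and 11.76 after 10 nM, and 12.28, 12.25 and 12.20 after 40 nM. The 10 nM arrays were the lowest at 48 h for COXFA4 and the highest for COXFA4L3. They also stand apart in technical controls, which cannot be told apart from the dose here. COXFA4 rose by 0.18 ± 0.05 after 40 nM for 24 h (adjusted p = 0.0168) and fell by 0.35 ± 0.05 after 10 nM for 48 h (adjusted p = 0.000192). After 40 nM for 48 h it differed by 0.11 ± 0.05 (adjusted p = 0.203). The rise at 24 h was lost without vehicle array 3 (adjusted p = 0.0679) or 40 nM array 1 (adjusted p = 0.0648).

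COXFA4L2, the other paralog and a known target of hypoxia signalling, had group means of 4.59 to 5.33. It fell by 0.30 ± 0.07 after 40 nM for 24 h (adjusted p = 0.00505) and differed by 0.08 after 10 nM and by -0.13 after 40 nM at 48 h (adjusted p of 0.512 and 0.277). Over the 15 arrays, with the vehicle mean of the same time subtracted, COXFA4L3 correlated at -0.41 with COXFA4 and at 0.0008 with COXFA4L2. These arrays share their vehicle means, and the correlations are descriptions.

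**Figure D1:**
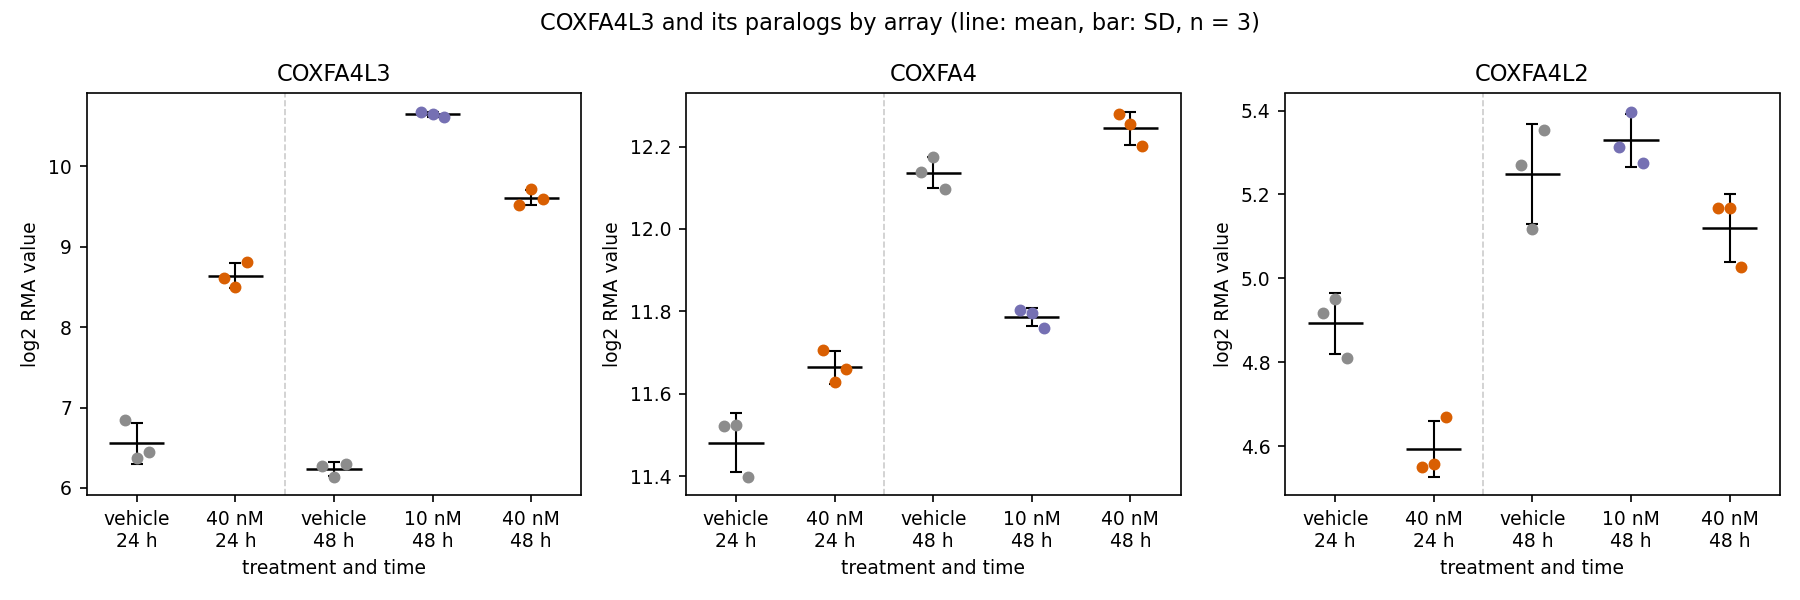
Log2 RMA value (vertical axis, its own scale in each panel) of COXFA4L3, COXFA4 and COXFA4L2 on each array (points) by treatment and time, with the group mean (line) and SD (bar, n = 3). COXFA4L3 is above vehicle in all treated arrays and highest after 10 nM for 48 h, where COXFA4 is below its vehicle arrays. The 10 nM arrays stand apart in technical controls.

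By the same measure, the 5 genes of the whole table most like COXFA4L3 over the 15 arrays were MMP7 (r = 0.995), UBE2L6 (0.993), COL6A1 (0.990), IFI44L (0.990) and KCNK1 (0.990). MMP7 encodes a matrix metalloproteinase, UBE2L6 the conjugating enzyme for ISG15, COL6A1 a collagen VI chain, IFI44L an interferon-induced protein and KCNK1 a potassium channel. MMP7 rose by 1.28 after 40 nM for 24 h, and by 2.91 after 10 nM and 2.03 after 40 nM at 48 h. UBE2L6 rose by 0.63, 1.42 and 1.02 in the same order. The 40 nM minus 10 nM difference at 48 h was -0.87 for MMP7, -0.41 for UBE2L6, -0.13 for COL6A1, -0.44 for IFI44L and -0.32 for KCNK1. These genes were chosen for their likeness over the same arrays, so their values are a description.

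After 40 nM for 24 h, 29 of the 93 members rose (31.2%, against 14.8% of all genes) and 7 fell (7.53%, against 16.7%). In either direction 38.7% of the members changed, against 31.5% of all genes. Fewer members passed, and fewer rose, in a fit on only the arrays compared, with counts given in the section on processing. The share of all genes was not computed for that fit. Treated and vehicle arrays did not overlap for 53 members, and they did not overlap for 37.6% of all genes. The members were brighter than most genes, with a median level of 11.30 against 6.03, and 83 of the 93 lay above the median gene. Shares of members and of all genes, here and below, were not matched for level, and its part in them was not tested. Apart from COXFA4L3 the changes were small: the lowest was -0.52 and the highest 0.39, and the median over all members was 0.07, against -0.01 over all genes. The rises were spread over all 5 complexes, and the falls were in complex I subunits, complex I assembly factors and cytochrome c.

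Of the 33 complex I subunit genes, 12 rose and 2 fell after 40 nM for 24 h, with a median of 0.10. Without probe sets marked as shared between transcripts, 9 of the 27 left passed, 6 up and 3 down. NDUFV2, a core subunit with an iron-sulphur cluster in the NADH-oxidising arm, was at 10.76, 10.70 and 10.53 in vehicle and at 11.05, 10.93 and 11.00 after 40 nM. It rose by 0.33 ± 0.07 (adjusted p = 0.00124) and was the only one of the 5 core subunits measured to pass. Among the 28 accessory subunits, which surround the core, 11 rose and 2 fell. NDUFA7 rose by 0.39 ± 0.08 (adjusted p = 0.00118) and NDUFA2 by 0.33 ± 0.05 (adjusted p = 0.000127). NDUFAB1, the mitochondrial acyl carrier protein that also serves fatty acid and iron-sulphur cluster synthesis, went the other way, from 11.94, 11.87 and 11.90 to 11.44, 11.28 and 11.43. It fell by 0.52 ± 0.06 (adjusted p = 5.71e-06), to levels below all vehicle arrays. NDUFA5 fell by 0.26 ± 0.09 (adjusted p = 0.0302), a call lost without any 1 of 5 arrays at 24 h (adjusted p up to 0.111).

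The complex I assembly factors with an NDUFAF name, help to build the complex and are not part of it. Of 8 measured, 4 fell and 1 rose after 40 nM for 24 h, with a median of -0.21. NDUFAF2, a chaperone of a late assembly step, was at 10.20, 10.17 and 10.18 in vehicle and at 9.54, 9.69 and 9.76 after 40 nM. It fell by 0.52 ± 0.07 (adjusted p = 2.82e-05), and no treated array reached the vehicle range. NDUFAF1 fell by 0.41 ± 0.10 (adjusted p = 0.00432), NDUFAF6 by 0.31 ± 0.07 (adjusted p = 0.00476) and NDUFAF8 by 0.29 ± 0.05 (adjusted p = 0.000329). NDUFAF7, a methyltransferase that acts on a core subunit, rose by 0.33 ± 0.09 (adjusted p = 0.0124). Its call was lost without vehicle array 3 (adjusted p = 0.0543) or 40 nM array 3 (adjusted p = 0.0588).

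Complexes II and III had rises and no falls after 40 nM for 24 h. SDHC, the other membrane anchor of complex II, was at 10.42, 10.51 and 10.55 in vehicle and at 10.84, 10.73 and 11.01 after 40 nM. It rose by 0.37 ± 0.07 (adjusted p = 0.000919), and its other 3 bright probe sets gave 0.33 to 0.61. SDHA, the flavoprotein subunit, rose by 0.21 ± 0.05 (adjusted p = 0.00328), and SDHD differed by 0.06 (adjusted p = 0.529). In complex III, 4 of 7 members rose, with a median of 0.15. UQCRB, which binds ubiquinone, went from 12.36, 12.36 and 12.27 to 12.57, 12.63 and 12.59, a rise of 0.27 ± 0.05 (adjusted p = 0.000899). UQCRC2, a core subunit, rose by 0.23 ± 0.05 (adjusted p = 0.00212) and UQCRQ by 0.21 ± 0.06 (adjusted p = 0.0092). UQCR11 rose by 0.15 ± 0.05 (adjusted p = 0.0393) by its brightest probe set, a call lost without any 1 of 12 arrays (adjusted p up to 0.13). It differed by -0.23 where probe sets marked as shared between transcripts were left out. CYC1, the cytochrome c1 subunit, differed by -0.10 (adjusted p = 0.18).

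CYCS, the soluble cytochrome c that carries electrons from complex III to complex IV, was at 11.90, 11.90 and 11.81 in vehicle and at 11.54, 11.59 and 11.52 after 40 nM for 24 h. It fell by 0.32 ± 0.05 (adjusted p = 0.000258). Its 2 other probe sets, with mean levels of 6.06 and 5.51 against 12.19, gave 0.44 and 0.96 instead, and the mean of all 3 gave 0.36. In complex IV, 5 of 17 members rose and 0 fell at 24 h, with a median of 0.05. COX7C rose by 0.26 ± 0.05 (adjusted p = 0.000831) and COX7A2 by 0.24 ± 0.05 (adjusted p = 0.0013), while COX5B, COX6B1 and COX7B rose by 0.21 to 0.22. COX4I1, the common form of subunit 4, differed by 0.04 (adjusted p = 0.57). None of the 6 tissue or condition isoforms COX4I2, COX6A2, COX6B2, COX7A1, COX7B2 and COX8C, whose mean levels were 2.69 to 4.87, passed in a comparison of geldanamycin with vehicle.

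In ATP synthase, 4 of 18 members rose and 0 fell after 40 nM for 24 h. ATP5IF1, the inhibitor that stops the enzyme from running backwards, was at 9.28, 9.27 and 9.23 in vehicle and at 9.64, 9.60 and 9.67 after 40 nM. It rose by 0.38 ± 0.06 (adjusted p = 0.0001). ATP5F1C, the central shaft subunit, rose by 0.23 ± 0.05 (adjusted p = 0.00172), and ATP5F1B, the catalytic beta subunit, by 0.17 ± 0.05 (adjusted p = 0.0198). ATP5F1A, the alpha subunit, differed by 0.06 (adjusted p = 0.444). The 5 pseudogenes, antisense or divergent transcripts that the name rule also takes in did not pass in a comparison of geldanamycin with vehicle.

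**Figure D2:**
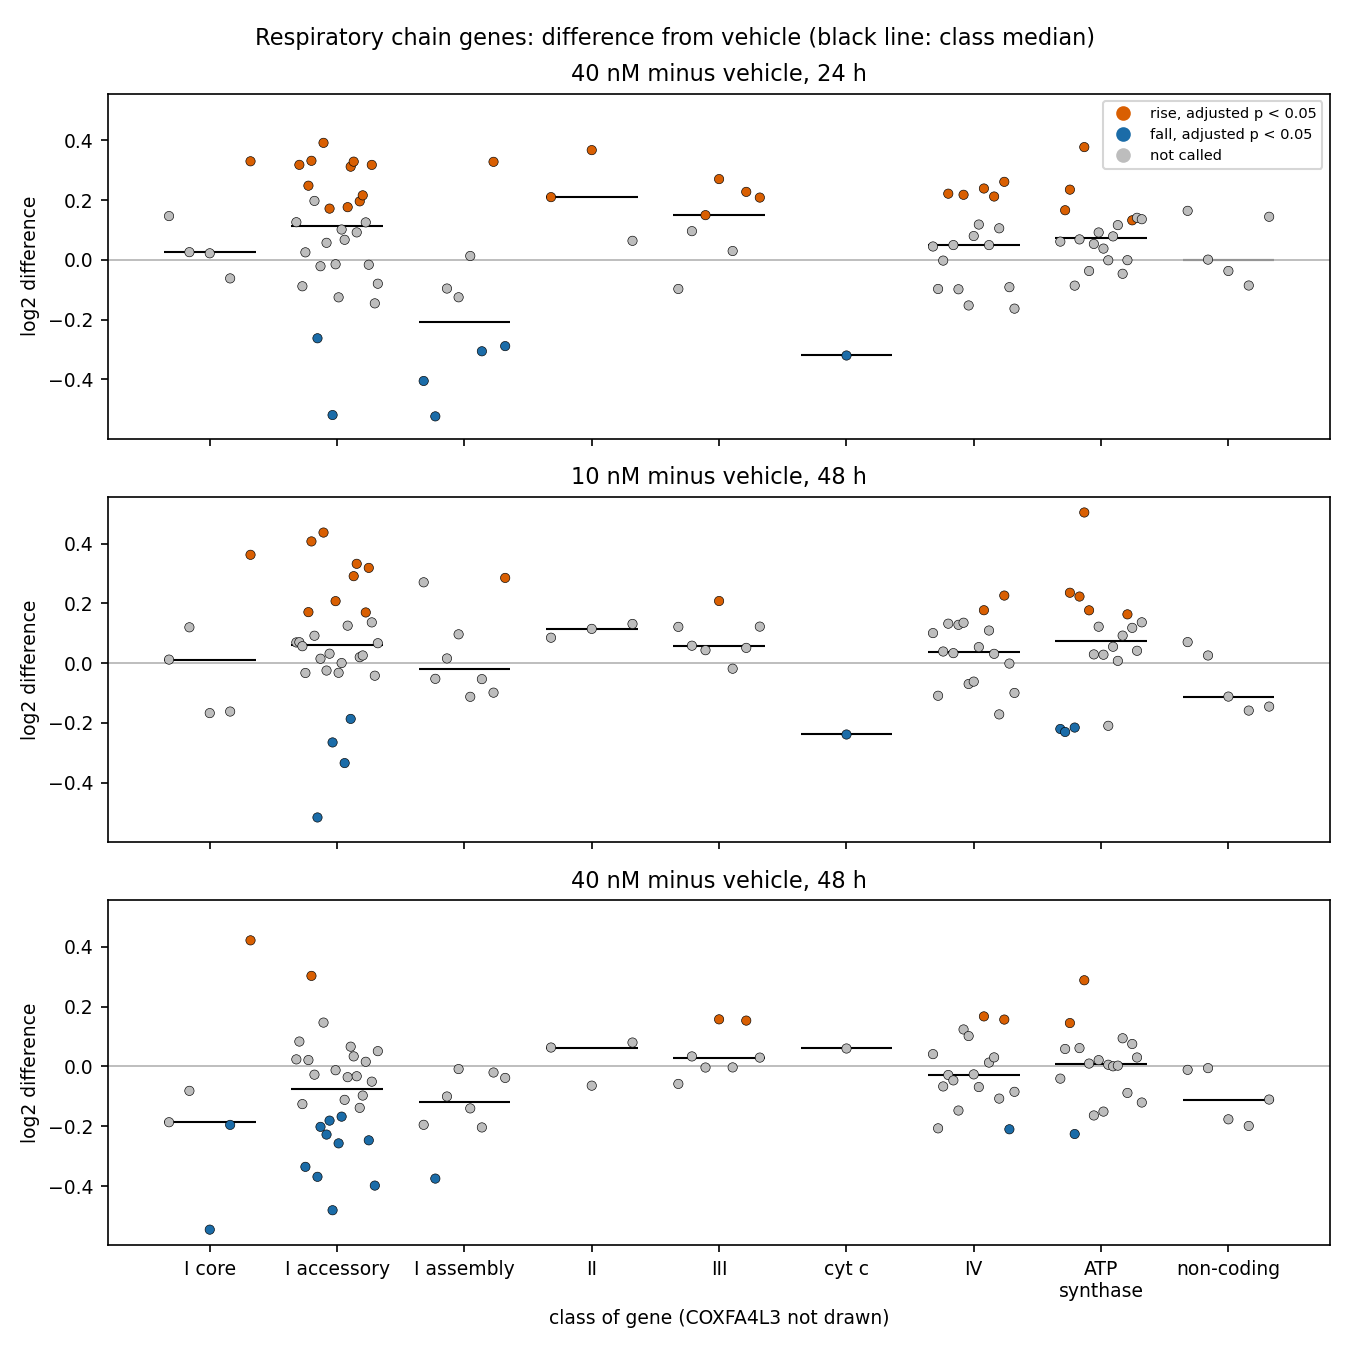
Log2 difference from vehicle (vertical axis) of each member except COXFA4L3 (points), by class (horizontal axis), for 40 nM at 24 h, 10 nM at 48 h and 40 nM at 48 h. Coloured points passed an adjusted p under 0.05 and the black line is the class median, which for complex I accessory subunits goes from 0.11 after 40 nM at 24 h to -0.07 after 40 nM at 48 h.

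After 40 nM for 48 h, 9 of the 93 members rose (against 10.5% of all genes) and 15 fell (16.1%, against 10.7%). In either direction the share was 25.8%, against 21.3% of all genes, and the groups did not overlap for 45 members and for 38.8% of all genes. The count of 24 fell to 14 without any 1 of the vehicle arrays at 48 h or without 40 nM array 2, and to 15 without 40 nM array 1. Of the 15 falls, 12 were among the 33 complex I subunits (36.4%), with 2 rises there and a median of -0.10. Complex III had 2 rises and 0 falls, complex IV 2 rises and 1 fall, ATP synthase 2 rises and 1 fall, and complex II 0 of either. With the 10 nM arrays left out of the fit, 19 members passed, 6 up and 13 down, and 12 complex I subunits, 2 up and 10 down. Without probe sets marked as shared between transcripts, 7 of the 27 complex I subunits left passed, 1 up and 6 down.

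NDUFS7, a core subunit that holds the last iron-sulphur cluster before ubiquinone, had the deepest fall. It was at 10.00, 9.93 and 9.90 in vehicle, 9.79, 9.82 and 9.72 after 10 nM and 9.38, 9.39 and 9.43 after 40 nM. It fell by 0.55 ± 0.06 after 40 nM (adjusted p = 2.16e-05), with all 3 arrays below the other 6 at this time. Its other probe set, at a mean of 4.22, gave 0.09. NDUFV1, the core subunit that binds NADH, fell by 0.20 ± 0.06 (adjusted p = 0.0243), lost without any 1 of 4 arrays at 48 h (adjusted p up to 0.0964). NDUFV2 again rose, from 10.96, 10.93 and 10.91 to 11.31, 11.39 and 11.37, by 0.42 ± 0.07 (adjusted p = 0.000332).

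Among the accessory subunits, 10 of 28 fell and 1, NDUFA2, rose (0.30 ± 0.05, adjusted p = 0.000549). For NDUFA2 the mean of its probe sets gave -0.07. NDUFAB1 fell from 12.35, 12.30 and 12.31 to 11.83, 11.81 and 11.88, by 0.48 ± 0.06 (adjusted p = 2.81e-05). NDUFS6, a subunit with a zinc site at the NADH-oxidising arm, fell by 0.40 ± 0.06 (adjusted p = 0.000141), NDUFA5 by 0.37 ± 0.09 (adjusted p = 0.00609) and NDUFA12 by 0.34 ± 0.05 (adjusted p = 0.00013). NDUFA12 was at 12.21, 12.17 and 12.18 in vehicle and at 11.82, 11.85 and 11.88 after 40 nM, without overlap. The assembly factor NDUFAF2 fell by 0.38 ± 0.07 (adjusted p = 0.00101), the only one of 8 to pass.

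Outside complex I, ATP5IF1 rose from 9.68, 9.51 and 9.59 to 9.85, 9.88 and 9.93 after 40 nM for 48 h, by 0.29 ± 0.06 (adjusted p = 0.00174). Its dimmest probe set gave -0.30. UQCRB, UQCRC2, COX7C, COX7A2 and ATP5F1C rose by 0.15 to 0.17 (adjusted p of 0.0219 to 0.0495). Each of these 5 calls was lost without 1 array, for 5 of the 15 arrays in COX7A2, 7 in COX7C, 9 in UQCRC2, 10 in UQCRB and 14 in ATP5F1C, with an adjusted p of up to 0.21. COX8A fell by 0.21 ± 0.06 (adjusted p = 0.0212) and ATP5F1D, the delta subunit of the shaft, by 0.23 ± 0.06 (adjusted p = 0.0121), and these calls were lost without 1 of 4 and 1 of 2 arrays at 48 h (adjusted p up to 0.0978 and 0.0635). By the brightest probe set of each, SDHC differed by -0.06 (adjusted p = 0.647) and CYCS by 0.06 (adjusted p = 0.523). For SDHC the sign turned where probe sets marked as shared between transcripts were left out. The dimmer probe sets of CYCS, with mean levels of 6.06 and 5.51, gave 0.91 and 0.37.

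To compare both times, the 24 h difference of 40 nM from its vehicle was subtracted from the 48 h one, so that a step common to all arrays of a time drops out. It passed for 17 of the 93 members (18.3%, against 17.3% of all genes): 3 were higher (3 of 93, against 9.18%) and 14 lower (15.1%, against 8.11%). The count fell to 9 without 40 nM array 1 at 48 h, to 10 without vehicle array 3 at 48 h, and to 11 without 40 nM array 2 at 24 h, vehicle array 1 or 2 at 48 h, or 40 nM array 2 at 48 h. Complex I subunits accounted for 11 of the 14 lower ones, with 0 higher, and the median of the 33 was -0.22. Their count fell to 5, the lowest with 1 array left out, without 40 nM array 1 at 48 h, and it was 8 with the 10 nM arrays left out. Without probe sets marked as shared between transcripts, 3 of the 27 subunits left passed, all lower, with a median of -0.19. After cyclic loess 20 of the 33 passed, all lower. Of the 33 subunits, 29 had a less positive or more negative effect at 48 h than at 24 h, as had 75 of the 93 members. The share of all genes with this sign was not counted, and the median difference between the times over all genes was -0.004.

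NDUFS7 showed the largest such difference among complex I subunits, -0.57 (adjusted p = 0.000413), since it was at 9.69, 9.66 and 9.72 in vehicle and 9.67, 9.84 and 9.63 after 40 nM at 24 h. NDUFA12 differed by -0.36 (adjusted p = 0.00159), NDUFA9 by -0.35 (adjusted p = 0.0107) and NDUFB8 by -0.31 (adjusted p = 0.00601). NDUFA9, which was chosen after its values were seen, was the 1 member that rose at 24 h and fell at 48 h. Its values were 10.25, 10.29 and 10.14 in vehicle and 10.41, 10.39 and 10.40 after 40 nM at 24 h. At 48 h they were 10.58, 10.50 and 10.57 in vehicle and 10.28, 10.36 and 10.47 after 40 nM. The rise of 0.17 (adjusted p = 0.0453) and the fall of 0.18 (adjusted p = 0.0486) each lie close to the threshold and were lost without most single arrays (adjusted p up to 0.162 and 0.203).

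Outside complex I, SDHC differed between the times by -0.43 (adjusted p = 0.00761), ATP5PO, the stator subunit known as OSCP, by -0.26 (adjusted p = 0.0354) and COX5B by -0.25 (adjusted p = 0.0205). For SDHC, the 48 h difference that enters here turned sign where probe sets marked as shared between transcripts were left out. The ATP5PO call was lost without any 1 of 10 arrays (adjusted p up to 0.0832) and that of COX5B without 40 nM array 1 or 2 at 48 h (adjusted p of 0.0511 and 0.0591). CYCS differed by 0.38 (adjusted p = 0.00239) and NDUFAF8 by 0.25 (adjusted p = 0.0222), the latter lost without any 1 of 4 arrays (adjusted p up to 0.0598). The dimmer probe sets of CYCS gave 0.47 and -0.58 for this difference. Over both times, 9 members rose after 40 nM at each time and 3 fell at each time. A further 19 rose at 24 h and did not pass at 48 h, and 11 did not pass at 24 h and fell at 48 h. Shares of all genes with these pairs of calls were not computed, so the counts only describe the members. NDUFAB1, NDUFA5 and NDUFAF2 were the 3 that fell at both.

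**Figure D3:**
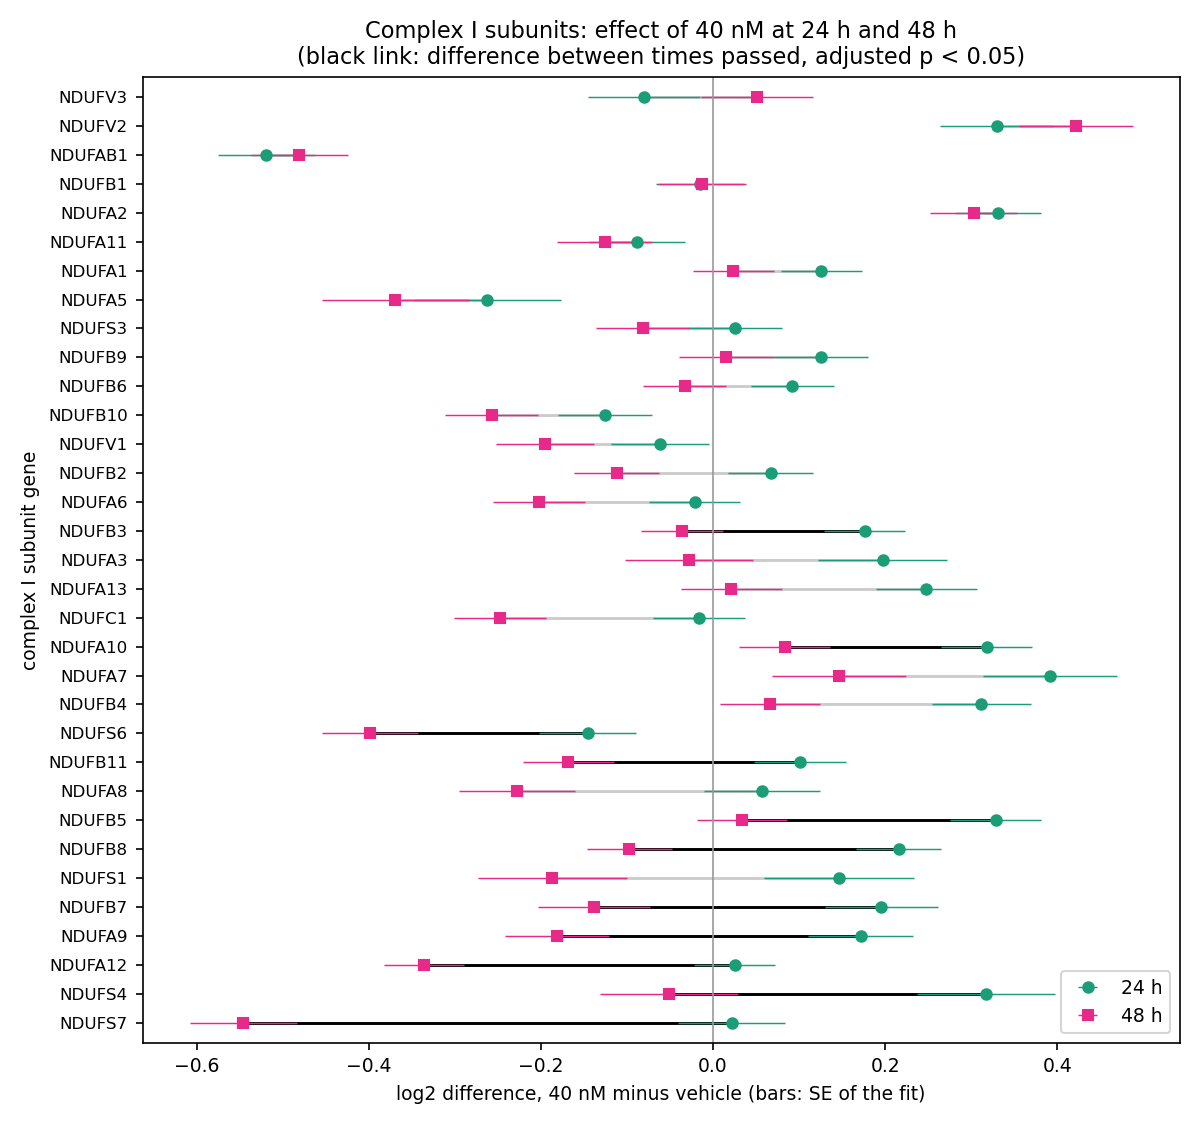
Log2 difference of 40 nM minus vehicle (horizontal axis) at 24 h (circles) and 48 h (squares) for the 33 complex I subunit genes (rows, sorted by the difference between times), with the SE of the fit as bars. Black links join the 11 genes whose difference between times passed, and in each of these the square lies to the left of the circle.

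After 10 nM for 48 h, 19 of the 93 members rose (against 14.4% of all genes) and 8 fell (8.6%, against 11.9%). The share in either direction was 29%, against 26.3% of all genes, and the groups did not overlap for 58 members and for 40.2% of all genes. These arrays are the ones with the low poly-A and high ACTB 3′ values. Complex I subunits gave 9 rises and 4 falls, ATP synthase 5 rises and 3 falls, complex IV 2 rises, complex III 1 rise, and complex II neither. ATP5IF1 had the largest rise after COXFA4L3, from 9.68, 9.51 and 9.59 to 10.10, 10.15 and 10.05, by 0.50 ± 0.06 (adjusted p = 9.98e-06). NDUFA7 rose by 0.44 ± 0.08 (adjusted p = 0.000669), NDUFA2 by 0.41 ± 0.05 (adjusted p = 2.81e-05), NDUFV2 by 0.36 ± 0.07 (adjusted p = 0.000797) and the assembly factor NDUFAF8 by 0.29 ± 0.05 (adjusted p = 0.000499).

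The deepest falls after 10 nM were in NDUFA5, by 0.52 ± 0.09 (adjusted p = 0.000376), and NDUFB2. NDUFA5 was at 10.35, 10.71 and 10.58 in vehicle and at 9.96, 10.04 and 10.11 after 10 nM. ATP5F1B, the catalytic subunit, was at 12.43, 12.47 and 12.52 in vehicle, 12.26, 12.24 and 12.24 after 10 nM and 12.53, 12.48 and 12.59 after 40 nM. It fell by 0.23 ± 0.05 after 10 nM (adjusted p = 0.00304), while it differed by 0.06 after 40 nM (adjusted p = 0.525). CYCS was at 12.59, 12.57 and 12.57 in vehicle, 12.36, 12.34 and 12.32 after 10 nM and 12.69, 12.66 and 12.56 after 40 nM. It fell by 0.24 ± 0.05 after 10 nM (adjusted p = 0.0036).

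Set directly against 10 nM at 48 h, 40 nM gave lower values for 29 of the 93 members (31.2%, against 14.5% of all genes) and higher values for 5 (against 11.9%), in all 36.6% against 26.4%. The groups did not overlap for 55 members and for 39.9% of all genes. The 10 nM arrays stand apart here as well. Complex I subunits gave 17 of the lower ones and 2 of the higher, with a median of -0.18. That count of 19 was 12 without 10 nM array 2 or 40 nM array 1, and 14 without 10 nM array 1 or 40 nM array 2. Without probe sets marked as shared between transcripts, 10 of the 27 subunits left passed, 1 higher and 9 lower. NDUFC1, a small subunit of the membrane arm, showed the widest gap after COXFA4L3: it was at 11.38, 11.32 and 11.30 in vehicle, 11.65, 11.71 and 11.59 after 10 nM and 11.04, 11.08 and 11.13 after 40 nM. It was above vehicle on all 10 nM arrays and below it on all 40 nM arrays, with 40 nM lower than 10 nM by 0.57 (adjusted p = 2.77e-06).

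The assembly factor NDUFAF1 was lower after 40 nM than after 10 nM by 0.47 (adjusted p = 0.00211), NDUFS7 by 0.38 (adjusted p = 0.000378), and NDUFB6 and NDUFS6 each by 0.36 (adjusted p of 6.06e-05 and 0.00027). The 5 higher members were CYCS, by 0.30 (adjusted p = 0.000667), ATP5F1B, by 0.29 (adjusted p = 0.000581), NDUFB4, by 0.25 (adjusted p = 0.00444), NDUFB2, by 0.22, and ATP5F1A, by 0.18 (adjusted p = 0.019). The ATP5F1A call was lost without 10 nM array 3 or 40 nM array 1 or 2 (adjusted p of 0.0526 to 0.074). NDUFV2 differed by 0.06 (adjusted p = 0.619) and COX7A2 by -0.01 (adjusted p = 0.934).

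**Figure D4:**
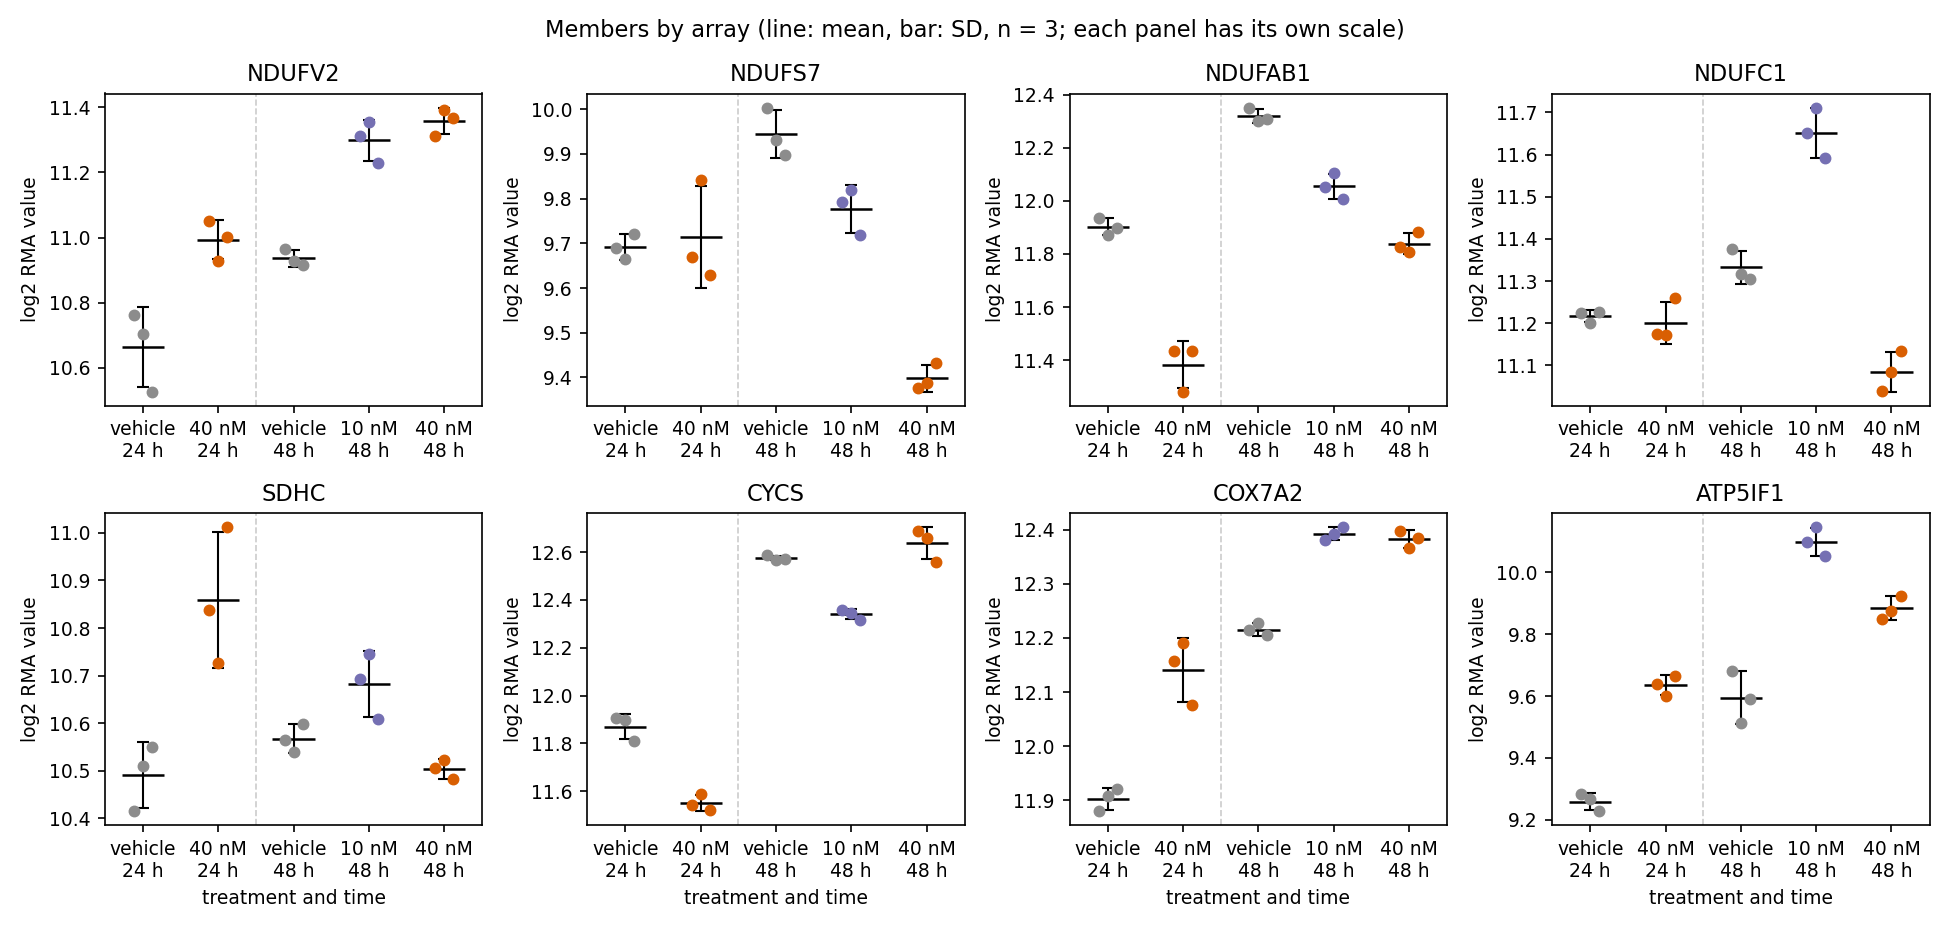
Log2 RMA value (vertical axis, its own scale in each panel) of 8 members on each array (points) by treatment and time, with the group mean (line) and SD (bar, n = 3). NDUFV2 and ATP5IF1 are above vehicle in every treated group, NDUFAB1 is below it, NDUFS7 is lowest after 40 nM for 48 h, and NDUFC1 is above vehicle after 10 nM and below it after 40 nM.

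Between the vehicle groups, 69 of the 93 members were higher at 48 h than at 24 h (against 67.3% of all genes) and 2 were lower (against 3.35%), in all 76.3% against 70.7%. The arrays of these groups did not overlap for 79 members and for 71.8% of all genes. This direction follows the step between the times and flips with the scaling: after cyclic loess 14 members were higher and 25 lower, and with array medians subtracted 5 were higher and 56 lower. The median difference of all genes was 0.35 as deposited, -0.01 after loess and -0.10 with medians subtracted.

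Other genes around the chain were described by lists that hold no member. Their counts stand beside shares over all genes of 14.8% higher and 16.7% lower after 40 nM for 24 h, 14.4% and 11.9% after 10 nM for 48 h, and 10.5% and 10.7% after 40 nM for 48 h. Among 16 regulators of mitochondrial biogenesis and mitochondrial DNA, 1 rose and 9 fell after 40 nM for 24 h (median -0.21). GABPB1, a subunit of an ETS-type factor, fell by 0.68 ± 0.10 (adjusted p = 9.7e-05) and TFAM, which packages and transcribes mitochondrial DNA, by 0.61 ± 0.06 (adjusted p = 3.49e-06). PPARGC1A, the coactivator PGC-1alpha, was the 1 that rose, by 1.35 ± 0.13 (adjusted p = 1.18e-06), from a dim probe set with a mean of 4.39. At 48 h, 2 rose and 4 fell after 10 nM and 1 rose and 5 fell after 40 nM. PPARGC1A rose by 1.61 ± 0.13 after 10 nM (adjusted p = 3.28e-07) and differed by 0.08 after 40 nM (adjusted p = 0.77).

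Assembly factors outside the name rule were described in the same way, beside the same shares (14.8% higher and 16.7% lower at 24 h). Of 8 complex I factors 0 rose and 4 fell after 40 nM (median -0.19), with NUBPL, which delivers iron-sulphur clusters, lower by 0.38 (-0.38, adjusted p = 0.000352). Of 27 complex IV factors 4 rose and 10 fell (median -0.05): LRPPRC, which stabilises mitochondrial messenger RNA, rose by 0.47 ± 0.06 (adjusted p = 4e-05), and COA7 fell by 0.46 ± 0.07 (adjusted p = 7.77e-05). Of 14 factors for complexes II, III and V, 3 rose and 4 fell, with BCS1L, the translocase that inserts the Rieske protein into complex III, down by 0.57 (-0.57, adjusted p = 7.07e-06). After 40 nM for 48 h the counts were 0 up and 2 down, 4 up and 5 down, and 1 up and 2 down in the same order, and after 10 nM 2 up and 3 down, 6 up and 2 down, and 3 up and 1 down.

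Of 16 citric acid cycle and pyruvate dehydrogenase genes measured, 3 rose and 1 fell after 40 nM for 24 h (all genes 14.8% and 16.7%), 3 rose and 6 fell after 10 nM for 48 h (14.4% and 11.9%), and 1 rose and 3 fell after 40 nM for 48 h (10.5% and 10.7%). CS, citrate synthase, rose by 0.41 ± 0.05 in the first (adjusted p = 2.59e-05), and DLD, the dehydrogenase shared by several complexes, fell by 0.73 ± 0.07 in the second (adjusted p = 2.39e-06). Of 16 mitochondrial chaperones and proteases, 2 rose and 4 fell after 40 nM for 24 h, and 3 rose and 2 fell in each comparison at 48 h. The 2 that rose at 24 h were HSPE1, by 0.66 ± 0.05 (adjusted p = 3.77e-07), and HSPD1, by 0.40 ± 0.05 (adjusted p = 3.78e-05), which together form the folding chamber of the matrix. Of 7 carriers and channels measured, 0 rose and 2 fell after 40 nM for 24 h. VDAC1, the main outer membrane channel, fell by 0.44 after 10 nM for 48 h (-0.44, adjusted p = 2.95e-05) and rose by 0.28 after 40 nM (adjusted p = 0.00199), the 1 change in this list in each of these comparisons.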

How the data were processed

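The 15 arrays (5 groups of 3, total RNA) are of the Affymetrix HG-U133 Plus 2.0 type. The deposited values are log2 expression per probe set and array, made by the authors; per the submitters' processing notes the method was RMA and the program Affymetrix Expression Console. Their versions are not given in the sources used here. The method corrects background, equalises distributions by quantiles and summarises probes. Whether both times were normalised together is not stated. Of 54675 probe sets 62 are controls, 41091 had 1 symbol, 1801 several and 11721 none. Of the 41091, 41037 took the current symbol of their gene ID, whether or not it differed from the one given. No gene was named from a probe set that carries several. This left out of the fit 15 probe sets with several symbols of which at least 1 fits the name rule.

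Differences were tested in R 4.3.3 by limma 3.58.1 (two-sided moderated test by lmFit and eBayes, all 15 arrays, 10 residual degrees of freedom, Benjamini-Hochberg adjustment over 19775 genes). There is no read depth on arrays, and the number of arrays limits precision. The 6 comparisons include 2 doses that share the vehicle arrays at 48 h, so their values stand side by side only. The fit was run on simulated data with independent noise and changes planted in a small set of genes after 40 nM for 48 h. The simulation held no step between the times and no group apart in technical controls, so it does not bear on those features. In each comparison with a treated group, the named members were COXFA4L3 and its paralogs, up to 2 passing members with the largest rise and 2 with the largest fall per class, complex IV isoforms and their common forms, SDHA, SDHC, SDHD, CYC1 and CYCS; in the lists, up to 2 passing genes with the largest difference. Genes named beside this rule are TFAM, NDUFA9, UQCRQ, UQCR11, further genes in ranges or lower-ranked examples, and members whose 40 nM effect differed between the times, all chosen after their values were seen. Levels of different probe sets were not ranked. The members, lists and motifs were chosen with earlier results of these data known. Alternatives covered scaling, floors, the choice of probe sets, the arrays in the fit and each array left out; leaving out the 10 nM arrays was added after seeing the data. Replicate numbers were shared by the groups, but the 30 same-number correlations of deviations ran from -0.46 to 0.50 with 10 over 0.1, so the numbers were not taken as pairs. Sequences and motif windows are from RefSeq (GRCh38.p14).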

Additional observations from a re-analysis of the deposited data

Results flagged for a closer look

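For 17 members the effect of 40 nM (treated minus vehicle, log2) differed between 48 h and 24 h by limma's test of the difference itself, with an adjusted p under 0.05. The effect was larger at 48 h for COXFA4L3 (1.29), CYCS (0.38) and NDUFAF8 (0.25). It was lower at 48 h for the complex I subunits NDUFS7 (-0.57), NDUFS4 (-0.37), NDUFA12 (-0.36), NDUFA9 (-0.35), NDUFB7 (-0.33), NDUFB8 (-0.31), NDUFB5 (-0.29), NDUFB11 (-0.27), NDUFS6 (-0.25), NDUFA10 (-0.23) and NDUFB3 (-0.21). It was also lower for SDHC (-0.43), ATP5PO (-0.26) and COX5B (-0.25). Single arrays end many of these calls: without 40 nM array 1 at 48 h the count of members that passed was 9 in place of 17, the call of NDUFS4 was lost without any 1 of 8 arrays and that of NDUFA10 without any 1 of 13. Outliers were not tested, since every group holds 3 arrays.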

How the results depend on the processing

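The share of all genes that passed was not computed for any alternative setting, here or above. Counts of members in those settings therefore cannot be set against all genes. Counts of members that passed moved by over 1.5 times as follows. For 40 nM at 24 h, a fit on only the arrays compared gave 19 (13 up, 6 down) in place of 36. For 10 nM at 48 h, a floor at the 20th percentile gave 43 (33 up, 10 down) and an intensity trend with a robust prior 42 (32 up, 10 down) in place of 27. For 40 nM at 48 h, leaving out probe sets marked as shared between transcripts gave 14 (6 up, 8 down) in place of 24. For vehicle at 48 h against 24 h, cyclic loess gave 39 in place of 71. For the difference between times, cyclic loess gave 28, the floor 31, the trend 32 and leaving out shared probe sets 8 (4 up, 4 down) in place of 17. Leaving out 1 array in turn gave 29 to 36 for 40 nM at 24 h, 22 to 29 for 10 nM, 14 to 24 for 40 nM at 48 h, 23 to 36 for 40 nM against 10 nM, 67 to 73 between vehicles and 9 to 22 for the difference between times. The difference of COXFA4L3 between vehicles was -0.32 with an adjusted p of 0.0632 by limma on only the arrays compared, and -0.41 to -0.17 without 1 array. Its other differences kept their direction and passed in every setting run. COXFA4L3 has 1 probe set, not marked as shared, so settings that change the choice of probe sets could not alter its values. Without the 10 nM arrays, chosen after seeing the data, 33, 19, 71 and 13 members passed for 40 nM at 24 h, 40 nM at 48 h, the vehicles and the difference between times.

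Signs turned with the choice of probe sets. When all probe sets of a gene were averaged, the difference between times was 0.34 for COX7B, 40 nM at 24 h gave 0.36 for CYCS and -0.042 for UQCR11, 40 nM at 48 h gave -0.065 for NDUFA2, and 40 nM against 10 nM gave -0.047 for ATP5F1A. Without shared probe sets, 10 nM gave 0.10 for ATP5F1A, -0.42 for ATP5F1C and -0.26 for COX4I1. In the same setting 40 nM at 24 h gave -0.23 for UQCR11, and 40 nM against 10 nM gave -0.27 for ATP5F1A and 0.070 for NDUFS7. For 40 nM at 48 h it gave -0.076 for ATP5F1C, -0.30 for ATP5IF1, -0.24 for COX4I1, -0.23 for NDUFA2, 0.087 for NDUFS7, 0.43 for SDHC and -0.10 for UQCRB. The cause was not tested.

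The replicate numbers were not taken as pairs in the main fit, though the correlations given above cannot show that pairing was absent. With the replicate number as a block, 33, 27, 18, 32, 72 and 13 members passed in the 6 comparisons, in the order 40 nM at 24 h, 10 nM, 40 nM at 48 h, 40 nM against 10 nM, the vehicles and the difference between times. For complex I subunits, the block gave 7 in place of 11 in the last of these.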
